A study of Mus musculus with 1 sample.

Results

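Transcripts of 8 glutathione S-transferase genes (Gstm1, Gstm2, Gstm5, Gstm6, Gstm7, Gsta4, Gstp1 and Gsto1) were followed across the cell classes of the prepubertal mouse testis, out of 27998 genes listed for the library. The 8 genes were taken by their symbols, and they were proposed with their levels in these same cells already known, so the class levels below describe the library and carry no test. The cells came from wild-type (Zscan2+/+) C57BL/6 mice at postnatal day 8. Cells of 3 mice were pooled in equal number into 1 droplet-based library, after spermatogonia had been enriched with THY1+ magnetic beads and some unselected testis cells had been added back. The proportions of the classes therefore reflect the enrichment, and neither the spread between mice nor a comparison with another genotype was available; the Zscan2 knockout library was not analysed here.

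Glutathione S-transferases join the tripeptide glutathione to electrophilic compounds such as drugs, toxins and products of lipid peroxidation, which makes these compounds more soluble and less reactive. The cytosolic enzymes fall into classes by sequence, and the genes described here belong to the mu (Gstm), alpha (Gsta4), pi (Gstp1) and omega (Gsto1) classes. In the testis, the Sertoli cells nurse the germ cells within the seminiferous tubules, peritubular myoid cells wrap the tubules, and stromal cells lie in the interstitium between them.

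The 5 Gstm genes described here lie within chr3:107895821-108017973 of mm10 (GRCm38), where Gstm5 is on the plus strand and Gstm7, Gstm6, Gstm2 and Gstm1 follow on the minus strand, with Gstm3 (9 UMIs in all kept cells) between Gstm6 and Gstm2. Gsta4 lies on chromosome 9 at 78182774 to 78209349, and Gstp1 (4035407 to 4037985) and Gsto1 (47854970 to 47864790) lie apart on chromosome 19. Over the coding sequence Gstm1 was 86.0% identical to Gstm2, 82.8% to Gstm6, 82.6% to Gstm7 and 69.5% to Gstm5. One 30-base stretch near the end of the coding sequence, bases 625 to 654 of Gstm1, is shown as an example of how the paralogs differ. It is the last such stretch before the stop codon of Gstm1 to which all 5 genes align without a gap. The sequences are from the GENCODE M21 transcripts, 5′ to 3′, and capitals mark the bases that differ from Gstm1.
Gstm1: ttttcaaagatggcccactggagtaacaag
Gstm2: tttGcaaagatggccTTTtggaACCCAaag
Gstm5: AAtAACaagatggccAaGtggGgtaacaag
Gstm6: tACtTaaaACAggccACGtggGgCaaTGag
Gstm7: ttCAcaaagatggcAACTtggGgCaGcaaT
Relative to Gstm1 there were 9 differences in Gstm2, 8 in Gstm5, 13 in Gstm6 and 10 in Gstm7. The library counts transcripts from their 3′ ends, so it matters whether those ends can be told apart. In the last 500 bases of the transcript, none of the 100-base windows of the 5 Gstm genes, Gsta4 or Gsto1 occurred in a transcript of another gene. For Gstp1, 67.3% of these windows also occurred in Gstp2 or Gstp-ps, so its counts are uncertain. Gstm5 overlaps 4933431E20Rik, and Gsto1 overlaps Cfap43, on the opposite strand. The overlap with 4933431E20Rik, chr3:107895821-107896213, lies at the 5′ end of Gstm5, away from the 3′ end. In germ cells, 72 UMIs (unique molecular identifiers, each counting 1 captured transcript) of 4933431E20Rik and 20 of Cfap43 were found. Whether the counting used strand is not given in the sources used here.

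The library held 970 cell barcodes with 2655 to 44915 UMIs each (median 9115), of which 919 were kept. Clustering without the glutathione S-transferase genes gave 255 Sertoli-like, 186 stromal-like, 94 peritubular myoid-like and 323 germ cells, beside 35 macrophage-like cells and 26 others. These 26 cells were led by both lymphocyte (Xcl1, Gzmc, Cd3g) and mural cell (Rgs5, Higd1b) genes. The marker rule called them T cells, but because of the mural cell genes they were left unnamed. The other classes were named from lists of markers. The 8 Sertoli cell markers used for this summed to 6382.1 counts per 1000000 UMIs (CPM) in Sertoli-like cells and to 64.8 CPM in germ cells. The 6 germ cell markers summed to 1352.9 CPM in germ cells and to 33.1 CPM in Sertoli-like cells. The stromal-like and myoid-like classes were less separate, since myoid-like cells held the 8 stromal markers at 44.8% of their summed stromal level, and 1 of these, Tcf21, was higher in the myoid-like cells than in the stromal-like cells. Median depth was 8343 UMIs in Sertoli-like, 8370.5 in stromal-like, 7446 in myoid-like and 18220 in germ cells. Levels are summed UMIs of a class as CPM, intervals are 95% and cover counting error only, and they say nothing of the spread between mice.

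Summed over these 8 genes, which were proposed with their levels known, Sertoli-like cells carried the most transcript. The 8 genes together reached 7506.4 CPM there, against 1535.6 CPM in stromal-like, 1247.9 CPM in myoid-like and 454 CPM in germ cells. Sertoli-like cells were high in 4 mu-class genes and in Gsta4, while Gstm5, Gstp1 and Gsto1 were not highest there. At a fold of 2 in CPM, 5 of the 8 genes were higher in Sertoli-like than in germ cells (Gstm1, Gstm2, Gstm6, Gstm7 and Gsta4), where 22.6% of the 9731 genes with at least 50 UMIs in the pair were. One gene, Gsto1, was lower by that fold, as were 25.0% of all genes. The median log2 ratio was 4.06 over the 8 genes and -0.10 over all genes. The genes were chosen on this contrast, so nothing is read from these counts.

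**Figure D1:**
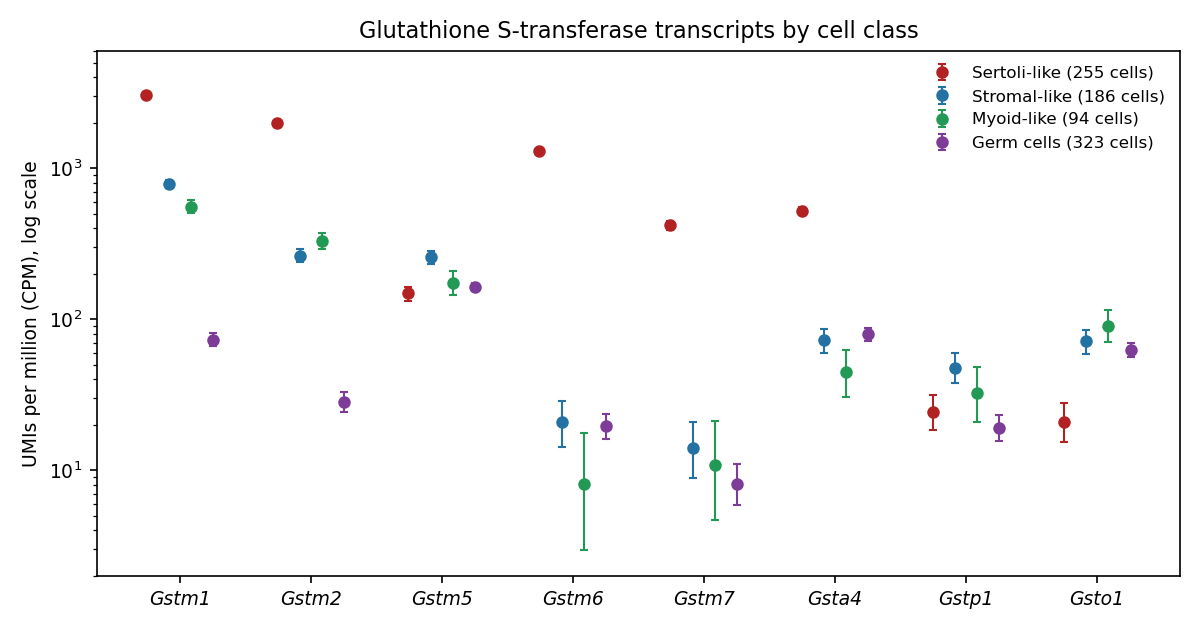
Level of each transferase gene (CPM, log axis) in the 255 Sertoli-like, 186 stromal-like, 94 myoid-like and 323 germ cells, with exact Poisson 95% intervals that cover counting error only. Gstm1, Gstm2, Gstm6, Gstm7 and Gsta4 are highest in Sertoli-like cells, whereas the 4 levels of Gstm5 lie between 148 and 257 CPM.

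Among the 5 mu-class genes described here, Gstm1, which encodes a major mu-class enzyme of many mouse tissues, was the most abundant. It reached 3073.2 CPM (3001.9 to 3145.8, 7055 UMIs) in Sertoli-like cells, where it ranked 38 among 14163 genes with a UMI. Its level was 789 CPM (746 to 833) in stromal-like, 556 CPM (504 to 613) in myoid-like and 73.2 CPM (66.3 to 80.7) in germ cells. The 4 intervals did not overlap, and the Sertoli-like level was 3.90-fold the stromal-like one and 42-fold (38.0 to 46.5) the germ cell one.

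Gstm2, its close paralog, followed the same order at its ends but not in the middle. The level was 1996.4 CPM (1939.0 to 2055.0) in Sertoli-like cells, 331 CPM (291 to 375) in myoid-like cells, 264 CPM (239 to 290) in stromal-like cells and 28.3 CPM (24.1 to 33.1) in germ cells. Stromal-like cells thus held 1.42-fold (1.27 to 1.59) more Gstm1 but 0.797-fold (0.680 to 0.936) as much Gstm2 as myoid-like cells. The highest count in a stromal-like cell was 44 of 433 Gstm2 UMIs (class median 1), and the ratios were not recomputed without that cell.

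Gstm6 and Gstm7 were nearly restricted to the Sertoli-like class. Gstm6 stood at 1303.3 CPM (1257.0 to 1350.9, 2992 UMIs) there, against 20.7 CPM (34 UMIs) in stromal-like, 8.10 CPM (6 UMIs) in myoid-like and 19.5 CPM (108 UMIs) in germ cells. Gstm7 stood at 418 CPM (392 to 445, 959 UMIs), against 14 CPM (23 UMIs), 10.8 CPM (8 UMIs) and 8.12 CPM (45 UMIs) in the same order. Outside the Sertoli-like class no pair of neighbouring Gstm7 levels differed beyond counting error.

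Among the 5 mu-class genes described here, Gstm5 did not follow the others. Its level was 257 CPM (233 to 283, 422 UMIs) in stromal-like, 174 CPM (145 to 207, 129 UMIs) in myoid-like, 163 CPM (153 to 174, 906 UMIs) in germ and 148 CPM (132 to 164, 339 UMIs) in Sertoli-like cells. The stromal-like level was 1.74-fold (1.51 to 2.01) the Sertoli-like one. The ratio of Sertoli-like to germ cells was 0.903 (0.795 to 1.02), an interval that includes no difference, and the myoid-like and germ cell levels did not differ beyond counting error either.

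Use of the 5 mu-class paralogs described here therefore differed by cell class. Gstm3 and Gstm4 are not part of these shares. Of the 15928 UMIs of these 5 genes in Sertoli-like cells, Gstm1 made up 44.3% (43.5 to 45.1, exact binomial), Gstm2 28.8%, Gstm6 18.8%, Gstm7 6.02% and Gstm5 2.13%. Stromal-like cells used mainly Gstm1 (58.7%, 56.6 to 60.7, of 2207 UMIs), with Gstm2 at 19.6% and Gstm5 at 19.1%, and myoid-like cells used Gstm1 (51.5%, 48.0 to 55.0, of 800 UMIs) with more Gstm2 (30.6%). In germ cells, Gstm5 took 55.9% (53.4 to 58.3) of 1622 UMIs and Gstm1 took 25.0% (22.9 to 27.2). The larger share of Gstm5 in germ cells went with lower levels of the other paralogs, since its own level there was close to that of Sertoli-like cells. The germ cell levels of Gstm2, Gstm6 and Gstm7 were 1.42% to 1.94% of their Sertoli-like levels, and that of Gstm1 was 2.38%. The 8 Sertoli cell markers, summed, stood at 1.01% of their Sertoli-like level in germ cells. What part RNA free in the droplets had in the germ cell shares was not tested.

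**Figure D2:**
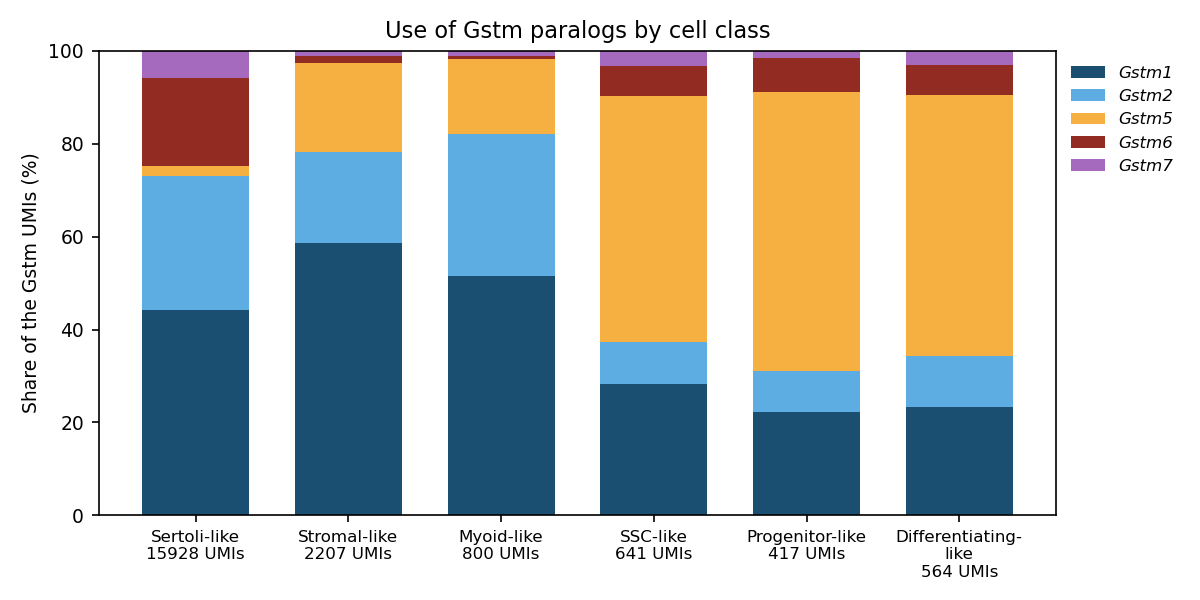
Share of the UMIs of the 5 Gstm genes (percent, stacked bars) that each paralog contributed in the somatic classes and the 3 germ cell states, with the number of UMIs under each bar. Gstm5 is 2.13% in Sertoli-like cells and between 52.9% and 60.0% in the germ cell states. The part of RNA free in the droplets in the germ cell shares was not tested.

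The alpha-class gene Gsta4, whose enzyme acts on 4-hydroxynonenal and related products of lipid peroxidation, was also highest in Sertoli-like cells, at 523 CPM (494 to 553, 1200 UMIs). It was at 79.2 CPM (72 to 87.0, 439 UMIs) in germ, 72.5 CPM (60.0 to 86.7, 119 UMIs) in stromal-like and 44.6 CPM (30.7 to 62.6, 33 UMIs) in myoid-like cells. The germ cell and stromal-like levels did not differ beyond counting error, and the Sertoli-like level was 6.60-fold (5.91 to 7.38) that of germ cells. The myoid-like level was 0.563-fold (0.382 to 0.802) that of germ cells, and the stromal-like level was 1.63-fold (1.10 to 2.47) the myoid-like one. The highest count in a stromal-like cell was 14 of the 119 Gsta4 UMIs (class median 0). The ratio of stromal-like to myoid-like cells was not recomputed without that cell.

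Counts of the pi-class gene Gstp1 were low in every class, at 47.5 CPM (37.6 to 59.3, 78 UMIs) in stromal-like, 32.4 CPM (24 UMIs) in myoid-like, 24.4 CPM (56 UMIs) in Sertoli-like and 19.1 CPM (15.7 to 23.1, 106 UMIs) in germ cells. In its last 500 transcript bases, 67.3% of 100-base windows were shared with Gstp2 or Gstp-ps. Whether Gstp1 itself is low therefore cannot be told from these counts, and the ratios below carry the same limit. Neighbouring levels in this order did not differ beyond counting error, but the stromal-like level was 2.48-fold (1.83 to 3.36) that of germ cells. Its near-copy Gstp2, 32 of whose 34 UMIs lay in germ cells, was counted apart and is named here after its values were seen. In the last 500 transcript bases of Gstp2, 77.1% of 100-base windows were shared with Gstp1 or Gstp-ps, so its counts are uncertain too. The log2 ratio of Gstp1 in Sertoli-like over germ cells was 0.35 (-0.14 to 0.83), and it turned to -0.20 with a mitochondrial limit of 5%. It rose to 1.26 when a hemoglobin-rich barcode, otherwise left out, was kept. That setting left the largest germ cell cluster unnamed, and so outside the germ cells that were summed.

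Gsto1, an omega-class enzyme that can reduce dehydroascorbate, was lowest in Sertoli-like cells. Its level was 90.5 CPM (70.1 to 115, 67 UMIs) in myoid-like, 71.3 CPM (58.9 to 85.4, 117 UMIs) in stromal-like, 62.6 CPM (56.2 to 69.5, 347 UMIs) in germ and 20.9 CPM (15.4 to 27.7, 48 UMIs) in Sertoli-like cells. Germ cells thus held 2.99-fold (2.21 to 4.14) the Sertoli-like level. The first 3 levels did not differ between neighbours, but the myoid-like level was 1.45-fold (1.10 to 1.88) that of germ cells. The highest count in a myoid-like cell was 7 of the 67 Gsto1 UMIs (class median 0), and this ratio was not recomputed without that cell. With a mitochondrial limit of 5% the log2 ratio of Sertoli-like over germ cells was -0.99, just short of 2-fold, against -1.58 otherwise.

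Set against germ cells, 3 of the 8 genes were at least 2-fold higher in stromal-like cells (Gstm1, Gstm2 and Gstp1), as were 17.4% of genes tested, and 0 were lower, where 36.6% were. In myoid-like cells 2 were higher (Gstm1 and Gstm2; background 13.7%) and 1, Gstm6 with 6 UMIs, was lower (background 41.7%). The last reached 2-fold under some of the 16 alternatives only, its log2 ratio running from -1.79 to -0.71. Sertoli-like cells exceeded stromal-like cells by that fold in the same 5 genes as for germ cells (background 25.5%) and were lower in Gsto1 (background 10.8%). The counts against myoid-like cells were also 5 higher (background 30.8%) and 1 lower (background 8.75%). Between stromal-like and myoid-like cells, 0 of the 6 genes with enough UMIs differed by that fold in either direction (background 7.42% higher and 5.39% lower). The comparisons share classes and are not independent of each other. The genes were proposed with their levels in all these classes known, so nothing is read from these counts either.

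Free RNA in droplets can place transcripts of one class in the barcodes of another, so the low levels were set beside Sertoli cell markers. In germ cells the 8 markers stood at 0% (Fshr, 0 UMIs) to 1.29% (Cldn11) of their Sertoli-like level, and at 1.01% when summed. Gstm1 stood at 2.38% (2.15 to 2.63), above the interval of Cldn11 (0.885 to 1.83), whereas those of Gstm2 (1.42%, 1.2 to 1.66), Gstm6 (1.49%, 1.22 to 1.81) and Gstm7 (1.94%, 1.41 to 2.62) overlapped it. Gsta4 stood at 15.2% (13.6 to 16.9). All 5 percentages were above those of the 8 markers. With 0 UMIs, however, the interval of Fshr reached 3.62%, past those of Gstm1, Gstm2, Gstm6 and Gstm7. What part free RNA had in the germ cell UMIs of these 4 genes was not tested.

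In stromal-like cells the markers reached up to 4.89% (Inha), and in myoid-like cells up to 2.96% (Sox9). Gstm6 (1.59% and 0.622%) and Gstm7 (3.35% and 2.59%) lay within these ranges, and the part of free RNA in their UMIs was not tested. The median over the 8 markers was 1.73% in stromal-like and 0.850% in myoid-like cells. Gstm1 (25.7% and 18.1%), Gstm2 (13.2% and 16.6%) and Gsta4 (13.9% and 8.53%) lay above the marker levels. The interval of Fshr, with 0 UMIs, reached 12.2% in stromal-like and 27.1% in myoid-like cells.

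**Figure D3:**
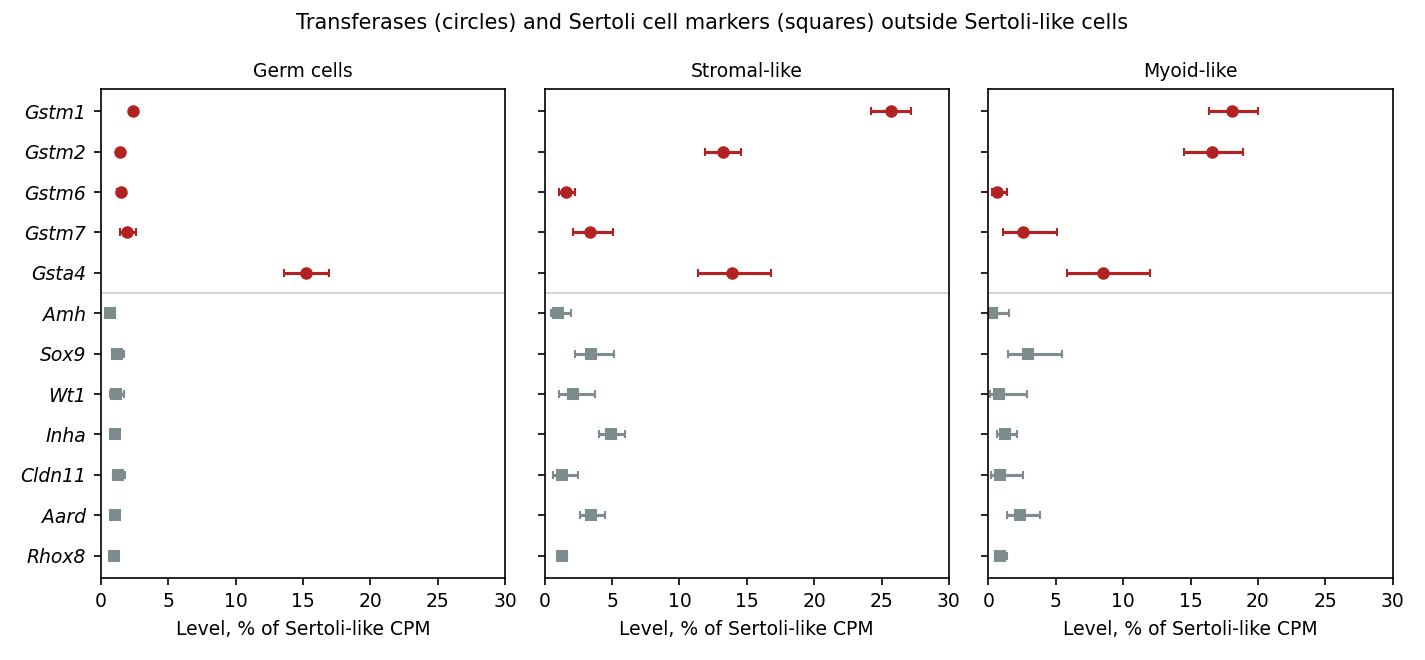
Levels in germ, stromal-like and myoid-like cells as a percent of the Sertoli-like level, for 5 transferase genes (circles) and 7 Sertoli cell markers (squares), with exact 95% intervals. Fshr, at 0 UMIs in all 3 classes, is not drawn. Gstm1, Gstm2 and Gsta4 stand above the markers drawn in both somatic classes, and in germ cells Gstm1 and Gsta4 have intervals above those of the markers drawn.

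Cell by cell, every Sertoli-like cell held at least 1 UMI of Gstm1, Gstm2 and Gstm6, and 60.8% (54.5 to 66.8) held all 5 Gstm paralogs. A Sertoli-like cell carried 3 to 155 Gstm1 UMIs, with a median of 24. To compare classes at equal depth, each cell was thinned to 5000 UMIs, which left out 20 Sertoli-like, 14 stromal-like, 4 myoid-like and 45 germ cells. Of these germ cells, 39 were from a cluster of 62 with a median of 4037.5 UMIs. The make-up of the thinned germ class thus differs from that of the whole. Gstm1 then remained in 27.7% of germ cells (65.9% before thinning), where in myoid-like cells the share was 83.3% (90.4% before), in stromal-like cells 93.0% (98.4% before) and among the Sertoli-like cells 100%. At that depth Gstm5 was found in 55.0% of germ cells (87.3% before), 55.6% of myoid-like cells (68.1%), 62.2% of stromal-like cells (78.0%) and 48.5% of Sertoli-like cells (63.9%). Gsta4 was found in 32.0% (61.3%), 17.8% (24.5%), 19.2% (32.3%) and 88.9% (94.5%) of cells in the same order.

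**Figure D4:**
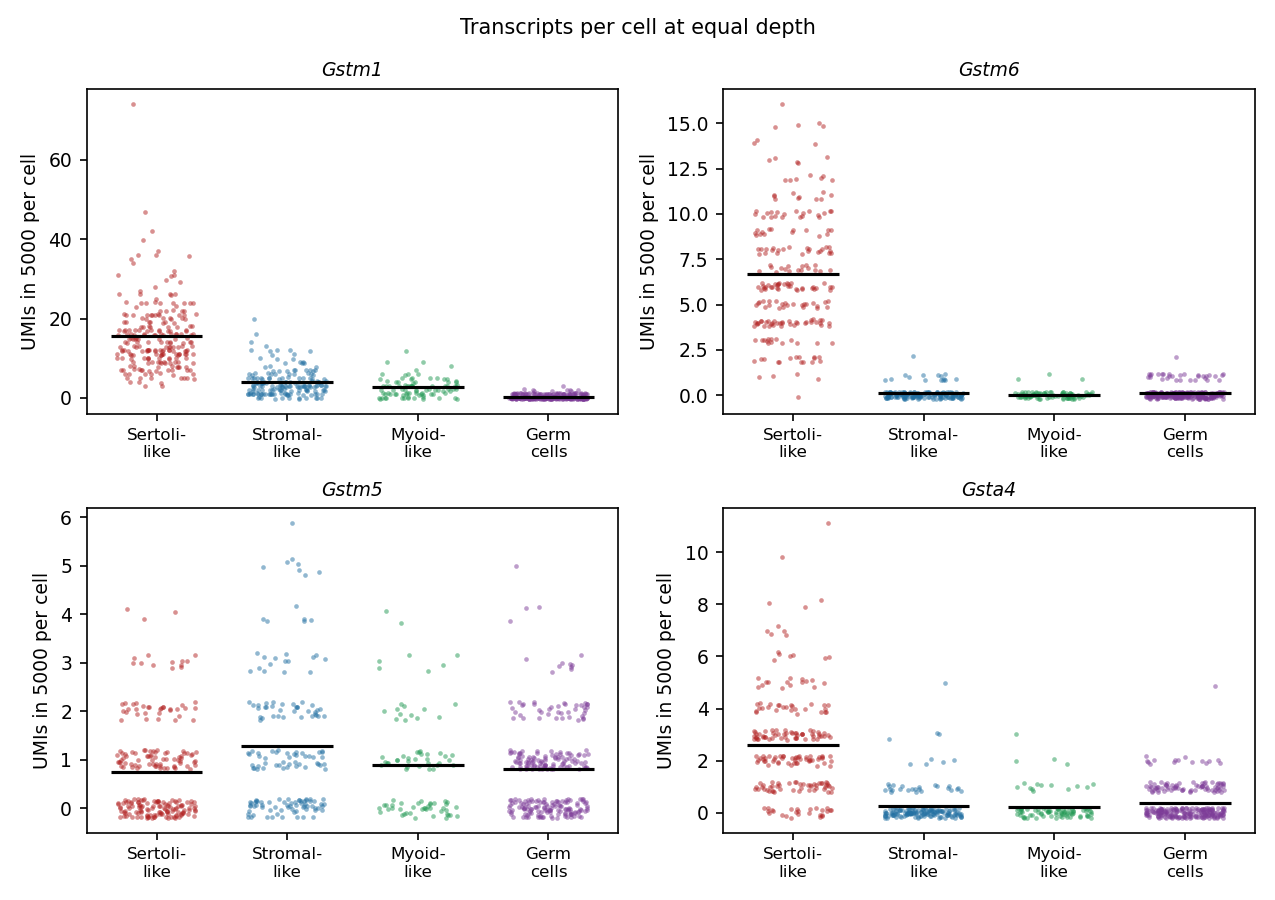
UMIs of Gstm1, Gstm6, Gstm5 and Gsta4 in each cell after thinning to 5000 UMIs (points, jittered by up to 0.2 UMI in height so that equal values can be seen; bars, class means), for the 235 Sertoli-like, 172 stromal-like, 90 myoid-like and 278 germ cells deep enough. Sertoli-like cells hold 3 to 74 Gstm1 UMIs, and for Gstm5 the classes overlap throughout.

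The balance of the paralogs varied among Sertoli-like cells. At equal depth the coefficient of variation of Gstm1 was 54.6%, where counting alone would give 25.3%, and that of Gstm6 was 48.9%, where counting alone would give 38.7%. Gstm1 made up 22.9% to 89.7% (median 59.4%) of the Gstm1 and Gstm2 UMIs of a cell, with an SD of 11.8 percentage points against 8.22 from counting. Over the 235 thinned cells, Pearson's r between the 5 Sertoli-high genes ran from 0.11 (Gstm2 and Gstm7) to 0.39 (Gstm2 and Gstm6). Thinned means were 2.12 (Gstm7) to 15.6 (Gstm1) UMIs per cell, and counting error at such counts lowers r. These values therefore do not show how closely the genes vary together. The cells share 1 library, so the values are no more than a description.

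Sertoli-like cells comprised 3 clusters. Gstm2 was 2338.8 CPM in the largest (134 cells), 1597.0 CPM in the 77 cells led by Cidea, Fstl3 and Nr0b1, and 1729.9 CPM in the 44 cells led by Lockd, Arhgef39 and Psrc1. Gstm1 was 3305.0, 2644.6 and 3129.6 CPM in the same order, and Gsta4 was 545, 487 and 521 CPM, with no pair of Gsta4 levels differing beyond counting error. Gsto1 rested on 30, 15 and 3 UMIs.

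Germ cells fell into 104 SSC-like cells (spermatogonial stem cells; led by Nefm, Lhx1 and Bcl6b), 77 progenitor-like cells (Neurog3) and 142 differentiating-like cells, the last in a cluster of 110 led by Kit and a cluster of 32 led by Prss50, Ly6k and Esx1. Between SSC-like and differentiating-like cells, 1 of the 7 genes with enough UMIs was at least 2-fold higher (Gstp1; background 6.31%) and 0 were lower (background 5.02%). Gstp1 stood at 22.3 CPM (53 UMIs) in SSC-like and 10.8 CPM (19 UMIs) in differentiating-like cells, a ratio of 2.06 (1.2 to 3.69). Progenitor-like cells held it at 24.0 CPM (34 UMIs), which was 2.22-fold (1.23 to 4.12) the differentiating-like level. The transcript end that Gstp1 shares with Gstp2 leaves these counts uncertain as well.

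Among the 4 clusters, Gsta4 and Gsto1 were both lowest in the 32 Prss50-led cells. Gsta4 was at 106 CPM (93.5 to 120) in SSC-like, 62.8 CPM (50.5 to 77.3) in progenitor-like, 67.5 CPM (54.3 to 82.8) in the Kit-led and 17.2 CPM (6.93 to 35.5, 7 UMIs) in the Prss50-led cluster. The SSC-like level was 1.69-fold (1.32 to 2.18) that of progenitor-like cells and 6.17-fold (2.95 to 15.5) that of the Prss50-led cells. Gsto1 was at 61.1, 74.1 and 68.9 CPM in the first 3 of these and at 9.85 CPM (2.68 to 25.2, 4 UMIs) in the Prss50-led cells. In the first clustering, of all cells, a germ cell cluster of 74 was also led by Prss50, Esx1 and Ly6k. It held 53 Gsta4 and 59 Gsto1 UMIs in 1256915, against 7 and 4 in 406181 for the 32 cells. How low both genes stood therefore depended on the clustering, and these levels were not recomputed under the alternatives.

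Gstm5 was at 143 CPM (128 to 159) in SSC-like, 177 CPM (155 to 200) in progenitor-like, 205 CPM (181 to 230) in Kit-led and 101 CPM (72.4 to 137) in Prss50-led cells. Gstm1 stayed between 65.7 and 76.4 CPM across the 4 clusters, with no pair differing beyond counting error. Median depth was 22739.5 UMIs in SSC-like, 19535 in progenitor-like, 8736 in Kit-led and 12208 in Prss50-led cells, and its part in these differences was not tested.

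**Figure D5:**
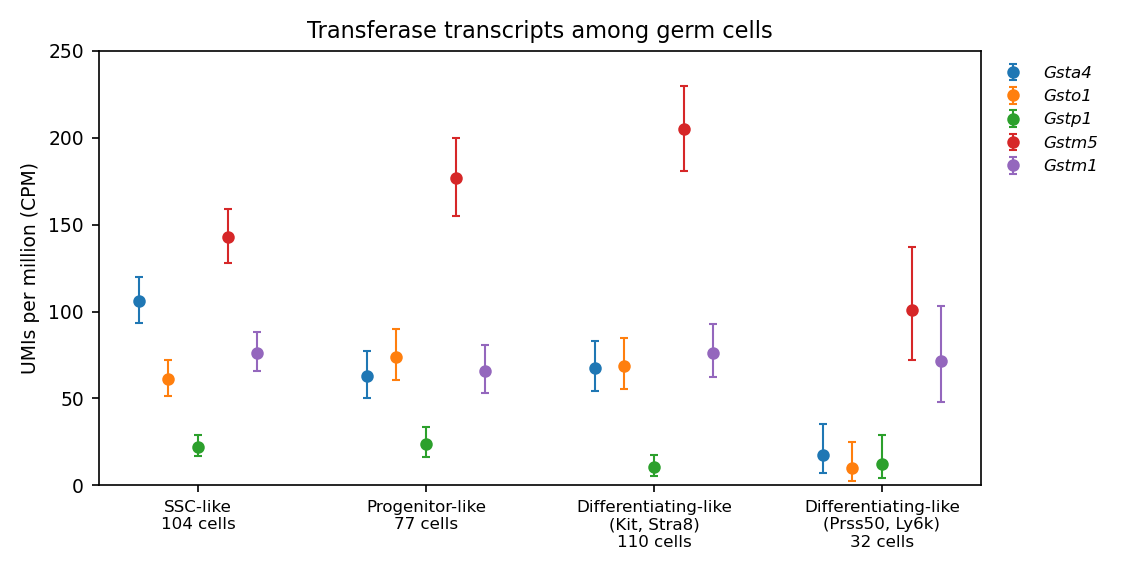
Levels (CPM, linear axis from 0) of 5 transferase genes in the 4 germ cell clusters, with exact Poisson 95% intervals that cover counting error only. Gsta4 is 106 CPM in SSC-like cells and 17.2 CPM in the Prss50-led cells, and Gsto1 is lowest in the latter at 9.85 CPM.

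Over the 11 clusters, the genes whose log2 levels ran most like those of each transferase were ranked among 9055 other genes. They were Abat, Gamt and Gata4 for Gstm1 (Pearson's r 0.987 to 0.986), Gata4, 1110046J04Rik and Gamt for Gstm2 (0.985 to 0.984), Gata6, Amh and Plppr4 for Gstm6 (0.994 to 0.993), and Reep2, Greb1 and Enpp2 for Gstm7 (0.997 to 0.994). For Gsta4 they were Rhobtb3, Clip4 and Dag1 (0.985 to 0.969), for Gstm5 Cfap20, Agk and Auts2 (0.920 to 0.911), for Gstp1 Mfsd4, Clstn1 and Clip3 (0.914 to 0.899), and for Gsto1 Preb, Aprt and Slc25a20 (0.864 to 0.832). Among the transferases themselves, r was 0.99 for Gstm1 with Gstm2 and for Gstm6 with Gstm7, and -0.63 for Gstm6 with Gsto1. The clusters share 1 library, so these values describe it only.

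Of 17 other transferase genes, 9 had at least 50 UMIs in Sertoli-like and germ cells together. Of these, 4 were at least 2-fold higher in Sertoli-like cells (Gsta2, Gsta3, Mgst1 and Mgst3, where the share of all genes was 22.6%) and 2 were lower (Gstk1 and Gsto2, where it was 25.0%). Mgst1, a microsomal transferase, was at 548 CPM (519 to 580) in Sertoli-like, 140 CPM in stromal-like, 48.6 CPM in myoid-like and 4.87 CPM in germ cells. Gsta2 was at 124 CPM in Sertoli-like and 140 CPM in stromal-like cells, but 6.75 CPM in myoid-like and 1.44 CPM in germ cells. In its last 500 transcript bases 6.73% of 100-base windows were shared with Gm10639. Of its 50-base windows, 51.0% were shared with Gm10639, Gm3776, Gm8074 or Gsta1, so its counts are uncertain. Gstt1, of the theta class, was highest in myoid-like cells at 109 CPM (86.9 to 136), against 52.4 CPM in stromal-like and 10.0 CPM in Sertoli-like cells. Gsto2 was at 19.8 CPM (16.3 to 23.9) in germ cells, where 110 of its 118 UMIs lay.

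Of 30 genes of glutathione metabolism and the NRF2 response, 25 had enough UMIs, and 7 were at least 2-fold higher (background 22.6%) and 9 lower (background 25.0%) in Sertoli-like than in germ cells, with a median log2 ratio of -0.01. Among the 8 most abundant, Prdx6, a peroxidase that can use glutathione, was higher in Sertoli-like cells (359 CPM against 88.6 CPM). Prdx1 (503 against 1782.5 CPM), Gsr, which regenerates reduced glutathione (53.6 against 175 CPM), and Glrx3 (121 against 266 CPM) were lower there. Gpx4 (505 and 501 CPM), Gpx1 (181 CPM in both), Glo1 (143 and 111 CPM) and Hmox1 (48.8 and 79.2 CPM) were within the fold of 2. The enzymes of glutathione synthesis, named after their values were seen, were all lower in Sertoli-like than in germ cells, with Gclc at 10.9 against 51.6 CPM, Gclm at 11.8 against 62.4 CPM and Gss at 6.53 against 27.1 CPM. This was not particular to Sertoli-like cells. Gclc, Gclm and Gss were also at least 2-fold lower than in germ cells in stromal-like (background 36.6%) and in myoid-like cells (background 41.7%). Gsr and Prdx1 were lower by that fold in both classes too, whereas Glrx3 was not.

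Promoters of 7 of the 8 genes were found in the RefSeq table (GRCm38.p6; 250 bases before to 50 after the start), as 11 promoters; Gsta4 was not matched. The core of the antioxidant response element, searched as TGACNNNGC on both strands, was present in 2 of the 11, as TGACCACGC beginning at -42 in Gstm5 and as TGACAAAGC at -129 in 1 of 2 Gstm7 promoters. The same letters occur in 12.4% of 32851 promoters of this length, and a match is a description of the letters only.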

How the data were processed

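The deposited files hold raw UMI counts per gene and barcode, which the authors made with Cell Ranger 2.1.0 on mm10, with Seurat also named in the submitters' processing notes (10x v2 chemistry, which counts 3′ ends, so levels were not scaled by length). The members and gene lists were chosen with earlier results of these data known. Barcodes with under 500 genes (10), with 10% or more mitochondrial UMIs (36) or called doublets by scrublet (4) were left out, as was 1 barcode with 82.8% hemoglobin UMIs (limit 5%), a filter chosen after seeing the data. Cells were clustered with Seurat 5.3.0 in R 4.3.3 (14 components, resolution 0.5), leaving transferase genes out of the variable genes. Clusters were named from marker lists, except that the cluster of 26 cells called T cells by this rule was left unnamed. Germ cells were clustered again. Classes were summed from 10901806 UMIs, and levels were given as CPM with exact Poisson intervals, ratios with exact conditional binomial intervals and shares with exact binomial intervals (95%, scipy 1.17.1), which cover counting error only. With 1 library of 3 pooled mice there were no replicates and no test. Fold counts used genes with at least 50 UMIs in a pair, and likeness used log2(CPM + 10) over genes with at least 100 UMIs. All 8 members were named, as were other transferase genes among those with at least 50 UMIs, the 8 most abundant genes of the glutathione list, and for each member the 3 genes of most similar pattern. The scripts were tested on simulated data. The clustering, depth and filter alternatives are given in the closing section.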

Additional observations from a re-analysis of the deposited data

How the results depend on the processing

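Values were recomputed under 16 alternatives, of which 2 were chosen after seeing the data (keeping the hemoglobin-rich barcode, and leaving out the germ cell cluster of low depth). Of the alternative values for the Sertoli-like to germ cell ratios and the Gstm1 shares, 181 stayed within the interval of counting error, 11 moved beyond it and 0 reversed a called direction. A mitochondrial limit of 5%, which left 441 cells, gave log2 ratios of Sertoli-like over germ cells of 5.86 for Gstm1, 3.28 for Gsta4, -0.20 for Gstp1 and -0.99 for Gsto1, and Gstm1 shares of 48.2% in Sertoli-like and 20.9% in germ cells. The ratio of Gstp1 thus changed sign, from 0.35 (-0.14 to 0.83), and that of Gsto1 fell short of 2-fold. Thinning each cell to 5000 UMIs gave 5.64 for Gstm1 and a Gstm1 share of 22.4% in germ cells, and clustering on a part of the counts gave 2.89 for Gsta4. Keeping the hemoglobin-rich barcode, which left the largest germ cell cluster unnamed, gave 3.22 for Gsta4 and 1.26 for Gstp1. The cause of the other shifts was not tested. Among the other values 497 stayed and 15 moved, with 0 reversed. Of the stromal-like and myoid-like ratios to germ cells, those of Gstm1 and Gstm2 ran from 2.83 to 3.69 and passed 2-fold under every alternative run. In myoid-like cells Gstm6 ran from -1.79 to -0.71, Gsta4 from -1.10 to -0.33 and Gstp1 from 0.60 to 1.67, and in stromal-like cells Gstm7 ran from 0.08 to 1.22, so each of these 4 passed 2-fold under some alternatives only. No paired analysis was possible because all values come from 1 library. Depth limits the values that rest on few UMIs, such as Gstm6 (6 UMIs) and Gstm7 (8 UMIs) in myoid-like cells.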

Other observations

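The 35 macrophage-like cells, led by C1qc, Pf4 and Csf1r, had a transferase profile of their own. Hpgds, the sigma-class enzyme that makes prostaglandin D2, stood at 304 CPM (258 to 356; 157 UMIs) there and at 1.08 to 1.35 CPM in Sertoli-like, stromal-like, myoid-like and germ cells. Mgst1 stood at 265 CPM (223 to 314) and Gsto1 at 105 CPM (78.6 to 137), the latter 1.67-fold (1.23 to 2.23) the germ cell level. Gstm1 was at 98.8 CPM (51 UMIs) and Gstm5 at 19.4 CPM (10 UMIs). Gstp1 had 0 UMIs, where 3 counts would be 5.81 CPM and the exact Poisson interval reaches 7.15 CPM. Hmox1, which breaks down heme, was at 4390.8 CPM in these cells.

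When the cells were clustered more finely (resolution 1.2), the stromal-like cells split into 125 cells led by Kcnk3, Vcam1 and Aqp2 and 61 cells led by Clec3b, Tppp3 and Mfap5. Gsta4 was at 89.0 CPM (72 to 109) in the former and 42.7 CPM (27.6 to 63.0) in the latter, and Gstm2 at 306 and 188 CPM, whereas Gstm1 was at 724 CPM (673 to 777) and 906 CPM (831 to 987). Single stromal-like cells held up to 14 Gsta4 and 44 Gstm2 UMIs, and these levels were not recomputed without such cells. A germ cell cluster of 62 cells with a median of 4037.5 UMIs held Gstm5 at 300 CPM (242 to 367; 94 UMIs), against 160 and 142 CPM in the other 2 germ cell clusters of the first clustering, and the part of its low depth in this was not tested.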
